A study of Mus musculus with 8 samples.

Results

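The 9 genes described here encode the parts of the MHC class I pathway that bind, load and control the presentation of peptides. They were taken by name from the deposited tables as H2-K1, H2-D1, H2-L, H2-T23, B2m, Tap1, Tap2, Tapbp and Nlrc5, 9 of 23354 gene symbols, and were chosen by name with earlier values of these data known, above all the difference in H2-L between libraries with replicate number 1 and 2. All 9 had 1 row each and a status of OK in every library, and all 9 were among the 10934 genes tested, which had at least 1 FPKM (fragments per kilobase of transcript, scaled to the fragments mapped in the library) in at least 2 libraries.

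MHC class I molecules show peptides made inside the cell to CD8 T cells. A heavy chain pairs with beta-2-microglobulin in the endoplasmic reticulum, where the TAP transporter brings in peptides cut by the proteasome and tapasin holds the empty heavy chain close to the transporter until a peptide binds. Interferons raise most of these genes, partly through NLRC5, a transactivator that acts at class I promoters together with proteins bound to the conserved X and Y boxes. Macrophages carry class I molecules on their surface at all times, and IL-4 is best known in these cells for inducing alternative activation and class II genes.

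The libraries were from macrophages grown for 7 days from bone marrow of 8-week-old mice, labelled C57BL/6J, in medium conditioned by L929 cells, a mouse fibroblast line. The mice carried a floxed Ern1 gene, which encodes the endoplasmic reticulum stress sensor IRE1α. All 4 groups share the floxed gene, so none is wild type. Groups were Ern1f/f control, Ern1f/f with IL-4 (24 hours at 20 ng/ml), Ern1f/fLyz2-Cre control and Ern1f/fLyz2-Cre with IL-4, with 2 libraries each. The Cre recombinase is expressed from the Lyz2 locus and is active in myeloid cells. Group membership was read from the sample titles. A separate genotype entry disagrees with the title in 4 of 8 libraries and follows the replicate number instead, and under that entry genotype and number cannot be told apart. Libraries numbered 1 are called set 1 and those numbered 2 are called set 2; what the number stands for is not given in the labels, nor are separate mice or cultures, so p-values measure the spread between these libraries, which may be technical.

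Ern1 stood at 9.11 to 11.5 FPKM in libraries titled Ern1f/f and at 7.43 to 14.3 FPKM in those titled Ern1f/fLyz2-Cre, and these gene-level values do not show whether exons were lost. The 8 macrophage markers found in the tables were all expressed, with Cd68 at 669 to 1001 FPKM and Csf1r at 356 to 870 FPKM, and with wider ranges for Cd14 (37.4 to 216 FPKM), Fcgr1 (16.9 to 113 FPKM) and Lyz2. Lyz2, the locus that carries Cre, was lower in each library titled Ern1f/fLyz2-Cre than in the Ern1f/f library of the same set and treatment. This pattern of 4 of 4 pairs was shown by 4.49% of tested genes. In set 1 Lyz2 read 10949 against 18114 FPKM in control cells and 5780 against 8902 with IL-4. In set 2 it read 2171 against 17415 and 1572 against 11961. The sets differed in other ways. The summed level of 7 fibroblast markers was 66.0 to 398 FPKM in set 1 and 1.66 to 6.10 FPKM in set 2, that of 5 B cell markers was 0.791 to 2.37 against 5.29 to 16.8 FPKM, and that of 26 interferon-stimulated genes was 403 to 509 against 2074 to 2426 FPKM. Only 1 of the 5 B cell markers reached 1 FPKM in at least 2 libraries, as did 5 of the 7 fibroblast markers. The part of these differences in the results below was not tested, and in bulk libraries fewer cells of a type and less RNA per cell cannot be told apart.

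Of the 9 genes, 7 lie on chromosome 17 in the authors' tables (mm10), all but Tapbp within the segment bounded by H2-Ke2 and H2-M2 (33938909 to 37483529). Tapbp lies just outside it at chr17:33919478-33929290, H2-K1 at chr17:33996012-34000333, Tap1 at chr17:34187556-34197225, Tap2 at chr17:34204479-34216321, H2-D1 at chr17:35263094-35267497, H2-L at chr17:35263123-35266730 and H2-T23 at chr17:36029977-36032701. B2m (chr2:122147687-122153082) and Nlrc5 (chr8:94472763-94527272) lie elsewhere. The whole gene model of H2-L, 3608 bases, lies inside that of H2-D1. The models of H2-T23 and B2m also lie inside longer ones, A930015D03Rik and Patl2. H2-L has no entry in GENCODE M21, which holds the other 8 genes. In C57BL/6 mice, which carry the b haplotype, the classical class I heavy chains are H2-K and H2-D, whereas H2-L is known from other haplotypes such as d.

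Promoter sequences were given by RefSeq (GRCm38.p6, the assembly of mm10) for 6 of the 9 genes. The 250 bases before the start site are shown for both classical heavy chains, their light chain and Tap1, because the heavy and light chains varied little between the sets whereas Tap1 differed. Capitals mark letters that match 4 motifs searched on both strands, namely the interferon-stimulated response element core (GAAA, any 2 bases, GAAA), the Y box CCAAT, the X2 box letters TGACG and the NF-kB site. H2-K1 lies on the minus strand (chr17:34000334-34000583, the window that ends at the start of the deposited gene model), and the others lie on the plus strand, H2-D1 at chr17:35262844-35263093, B2m at chr2:122147437-122147686 and Tap1 at chr17:34187306-34187555.
H2-K1: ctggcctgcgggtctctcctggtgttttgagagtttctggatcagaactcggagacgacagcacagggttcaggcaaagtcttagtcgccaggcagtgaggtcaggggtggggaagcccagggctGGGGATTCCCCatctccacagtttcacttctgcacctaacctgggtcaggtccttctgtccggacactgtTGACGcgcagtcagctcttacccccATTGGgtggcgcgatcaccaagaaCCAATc
H2-D1: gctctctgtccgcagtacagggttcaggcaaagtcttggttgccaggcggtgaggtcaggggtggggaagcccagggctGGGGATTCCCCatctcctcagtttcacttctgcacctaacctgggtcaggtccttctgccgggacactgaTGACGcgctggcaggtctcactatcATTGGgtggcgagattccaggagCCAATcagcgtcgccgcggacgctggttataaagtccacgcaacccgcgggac
B2m: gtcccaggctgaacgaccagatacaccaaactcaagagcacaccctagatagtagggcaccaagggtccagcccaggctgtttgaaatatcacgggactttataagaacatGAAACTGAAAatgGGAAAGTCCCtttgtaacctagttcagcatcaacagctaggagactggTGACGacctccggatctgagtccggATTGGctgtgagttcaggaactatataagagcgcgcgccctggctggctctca
Tap1: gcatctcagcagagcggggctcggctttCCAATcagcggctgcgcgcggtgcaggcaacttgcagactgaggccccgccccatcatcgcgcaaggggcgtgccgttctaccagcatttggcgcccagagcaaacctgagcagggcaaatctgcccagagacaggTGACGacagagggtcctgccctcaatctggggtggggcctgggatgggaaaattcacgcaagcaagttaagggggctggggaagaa

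The H2-K1 and H2-D1 windows both held an NF-kB match, in which overlapping matches on both strands form 1 run of capitals, followed by TGACG and by CCAAT in both orientations. Neither window matched the response element core as spelled above. B2m held the response element core at -139 to -130 relative to its start site, an NF-kB match at -126 to -117, TGACG and CCAAT. Tap1 held TGACG and CCAAT, with no match to the response element core or the NF-kB site in this window. H2-T23 held the response element core and CCAAT, and Tapbp held CCAAT alone. Among all 32851 promoter windows of 300 bases, 3.443% held the response element core, 8.459% the NF-kB site, 20.812% TGACG and 37.408% CCAAT. The shorter letters are thus common, and a match is a description of the sequence alone. Other spellings of these elements were not searched, so the lack of a match does not show that an element is absent.

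The heavy chains also share coding sequence. The longest stretch that is identical between H2-D1 and H2-K1 is 91 bases, at coding positions 747 to 837 of H2-D1 (chr17:35265911-35266001) and 738 to 828 of H2-K1 (chr17:33997343-33997433), read here 5′ to 3′ along the transcript.
shared by H2-D1 and H2-K1: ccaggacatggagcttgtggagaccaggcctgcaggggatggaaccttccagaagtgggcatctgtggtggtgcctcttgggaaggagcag

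Reads from this stretch fit either gene. Over whole GENCODE transcripts, 14.32% of the 50-base windows of H2-D1 occur in another gene, 8.79% of those of H2-K1 and 28.81% of those of H2-T23. H2-L has no GENCODE transcript and was not compared, so these shares leave out any sequence that H2-D1 or another gene has in common with it. For Tap1, Tap2 and Tapbp the share was 0.86%, 0.74% and 2.0%, and for B2m and Nlrc5 it was 0. How the deposited values divide shared fragments was not tested, so levels of the heavy chains are less certain than those of B2m and Nlrc5.

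B2m and the classical heavy chains were among the most abundant transcripts of these macrophages, and they varied little between libraries. B2m, the light chain of all class I molecules, stood at 4936 and 4627 FPKM in Ern1f/f control cells (set 1 and set 2, in this order throughout), 4588 and 4460 with IL-4, 4063 and 4627 in Ern1f/fLyz2-Cre control cells, and 5248 and 4322 with IL-4. Its highest library was 1.29 times its lowest, the groups overlapped, and its mean level ranked 12 among all genes of the tables. H2-D1, a classical heavy chain, stood at 2400 and 2643 FPKM in Ern1f/f control cells, 2385 and 2115 with IL-4, 2070 and 2222 in Ern1f/fLyz2-Cre control cells, and 2276 and 1881 with IL-4. H2-K1, the other classical heavy chain, stood at 989 and 1138 FPKM in Ern1f/f control cells, 1275 and 1026 with IL-4, 836 and 880 in Ern1f/fLyz2-Cre control cells, and 1110 and 876 with IL-4. Both heavy chains read lower in Ern1f/fLyz2-Cre than in Ern1f/f cells of the same set and treatment, in 4 of 4 pairs each, as 4.49% of tested genes did, but neither difference passed the test for genotype.

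H2-T23 encodes Qa-1, a nonclassical heavy chain that presents leader peptides of other class I molecules to receptors of natural killer cells. It stood at 201 and 219 FPKM in Ern1f/f control cells, 314 and 244 with IL-4, 162 and 246 in Ern1f/fLyz2-Cre control cells, and 257 and 303 with IL-4. Each IL-4 library was above its own control, while the ranges of control and IL-4 libraries overlapped. Tapbp, which encodes tapasin, stood at 176 and 177 FPKM in Ern1f/f control cells, 220 and 201 with IL-4, 188 and 175 in Ern1f/fLyz2-Cre control cells, and 194 and 195 with IL-4. All 4 IL-4 libraries of Tapbp were above all 4 controls, a pattern that 6.98% of tested genes showed.

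Tap1 and Tap2 encode the subunits of the peptide transporter. Tap1 stood at 20.6 and 39.5 FPKM in Ern1f/f control cells, 25.0 and 38.3 with IL-4, 17.8 and 43.1 in Ern1f/fLyz2-Cre control cells, and 18.004 and 38.3 with IL-4. Every set 2 library of Tap1 was above every set 1 library. Tap2 stood at 27.3 and 37.0 FPKM in Ern1f/f control cells, 31.7 and 30.1 with IL-4, 26.7 and 36.8 in Ern1f/fLyz2-Cre control cells, and 26.3 and 30.7 with IL-4, so that its sets overlapped. The ratio of Tap1 to Tap2 was therefore 0.665 to 0.788 in set 1 and 1.07 to 1.27 in set 2.

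Nlrc5, the class I transactivator, was the lowest of the 9 genes on average, at 3.63 and 9.53 FPKM in Ern1f/f control cells, 3.72 and 9.91 with IL-4, 4.05 and 10.2 in Ern1f/fLyz2-Cre control cells, and 2.77 and 10.3 with IL-4. Here too every set 2 library was above every set 1 library. The libraries of set 2 lay close together (9.53 to 10.3 FPKM), whereas those of set 1 ran from 2.77 to 4.05 FPKM.

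**Figure D1:**
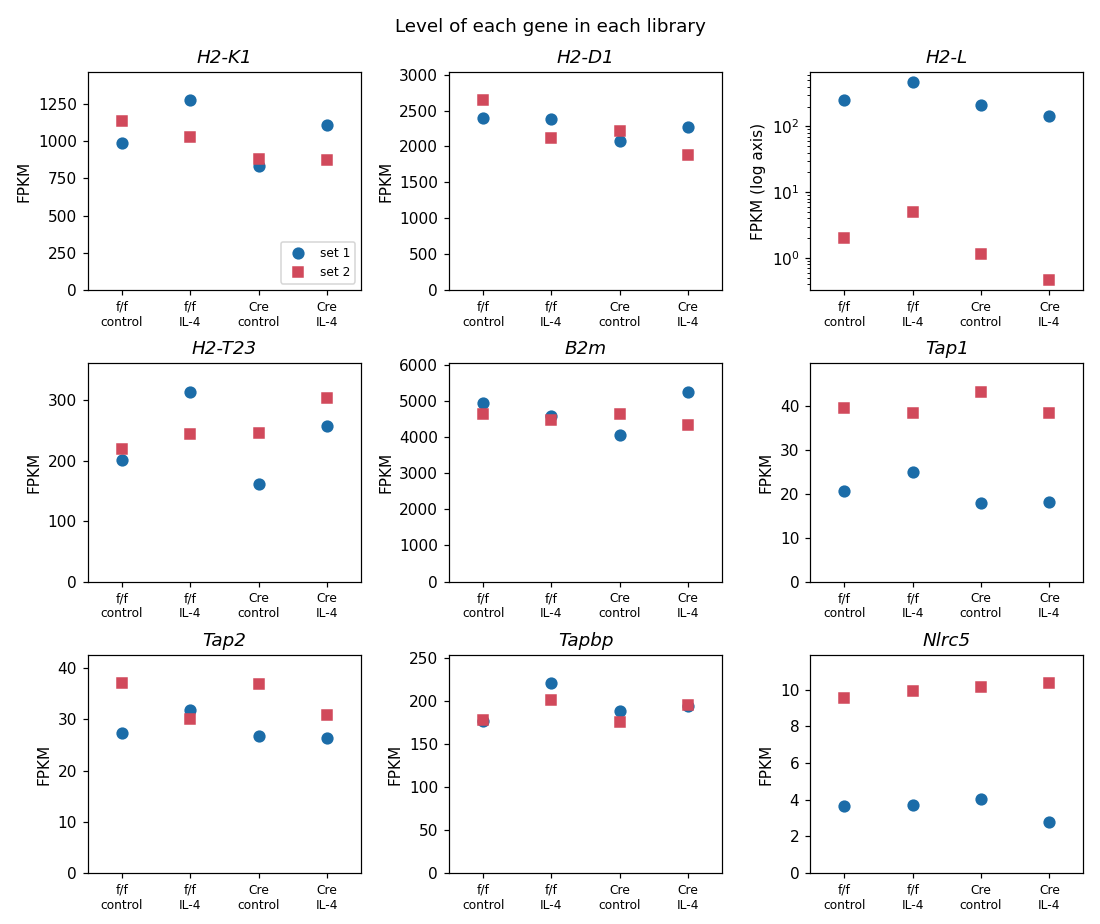
FPKM of the 9 genes (1 panel each) in the 4 groups, where f/f stands for Ern1f/f and Cre for Ern1f/fLyz2-Cre, with circles for set 1 and squares for set 2; axes start at 0 except for H2-L, which has a log axis. H2-L separates the sets by far the most, from 143 to 476 FPKM in set 1 and 0.460 to 4.98 FPKM in set 2.

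H2-L had by far the widest range of the 9 genes, its highest library at 1035 times its lowest. It stood at 248.7 FPKM in Ern1f/f control cells of set 1 and 2.02 FPKM in those of set 2, at 476 and 4.98 with IL-4, at 215 and 1.13 in Ern1f/fLyz2-Cre control cells, and at 143 and 0.460 with IL-4. Set 1 was therefore 123, 95.6, 190 and 311 times set 2 in the 4 groups, taken in that order. The authors' confidence intervals in set 2 were 1.31 to 2.73, 3.79 to 6.17, 0.510 to 1.75 and 0.0840 to 0.836 FPKM, all far below the lowest set 1 library at 143 FPKM (interval 138 to 148).

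Averaged over groups, the levels per length fell in the order B2m, H2-D1, H2-K1, H2-T23, Tapbp, H2-L, Tap2, Tap1 and Nlrc5. The ranges of B2m (4063 to 5248 FPKM), H2-D1 (1881 to 2643), H2-K1 (836 to 1275) and Nlrc5 (2.77 to 10.3) did not overlap those of their neighbours in this order. H2-T23 (162 to 314) and Tapbp (175 to 220) overlapped, as did Tap2 (26.3 to 37.0) and Tap1 (17.8 to 43.1). H2-L has no fixed place, with a mean of 136 FPKM, since in set 1 its range overlapped that of H2-T23 and in set 2 it lay below Nlrc5.

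Differences between the sets were known when these genes were chosen and are given as a description, with no test. On the scale of log2(FPKM + 1), the mean difference over the 4 groups (set 2 minus set 1) was -6.49 for H2-L, 1.28 for Nlrc5, 0.95 for Tap1, 0.25 for Tap2 and 0.15 for H2-T23. For H2-K1 it was -0.09, for H2-D1 -0.05, for B2m -0.06 and for Tapbp -0.05, and with libraries scaled to a common median ratio these 4 turned to 0.011, 0.054, 0.049 and 0.052. The set difference of H2-L was exceeded in size by only 3 tested genes, the chemokine gene Ccl8 (7.09), Mir686 (-7.00) and Slc13a3 (6.51). Of the 9 genes, H2-L and Nlrc5 differed by at least 1 with 1 direction in all 4 groups, and 6.22% of all tested genes did so (2.98% higher in set 2, as Nlrc5, and 3.24% lower, as H2-L). Tap1, at 0.95, lay just under that mark, with a ratio of set 2 to set 1 of 1.93, against 2.43 for Nlrc5. All set 2 libraries lay above all set 1 libraries for Tap1 and Nlrc5 (9.33% of tested genes) and below them for H2-L (22.4%).

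**Figure D2:**
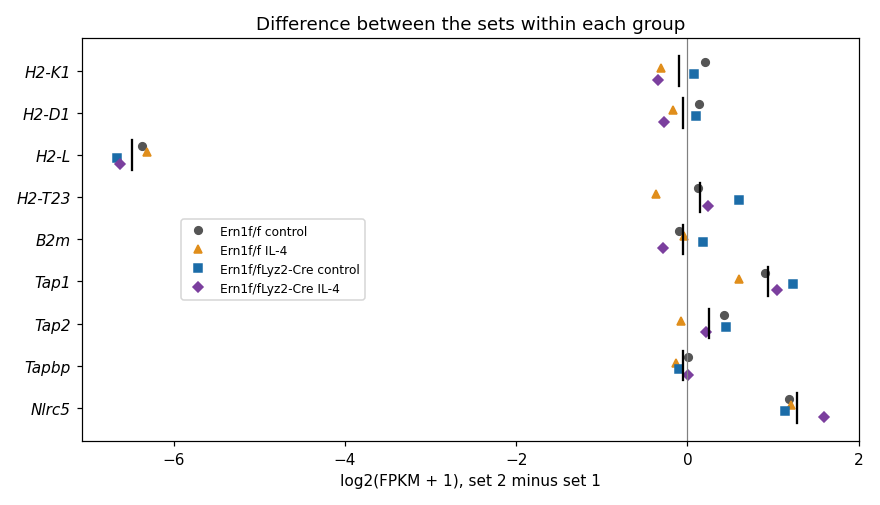
Difference in log2(FPKM + 1) between set 2 and set 1 within each of the 4 groups (symbols) for the 9 genes, with a black bar at the mean of the 4. H2-L lies near -6.5 in every group, Tap1 and Nlrc5 lie to the right of 0 in every group, and the other 6 genes scatter around 0.

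The gene models of H2-D1 and H2-L overlap along all of H2-L. Their sum follows H2-D1 by construction, since H2-L made up at most 16.6% of it in any library. The sum was 2649 and 2645 FPKM in Ern1f/f control cells, 2861 and 2120 with IL-4, 2285 and 2224 in Ern1f/fLyz2-Cre control cells, and 2419 and 1882 with IL-4. Its mean set difference of -0.21 on the log2 scale was larger in size than that of H2-D1 alone (-0.05). H2-L made up 9.39%, 16.6%, 9.40% and 5.92% of this sum in the 4 groups of set 1 and 0.0762%, 0.235%, 0.0508% and 0.0244% in those of set 2. Fitted as 1 feature, the sum was called in none of the 6 comparisons, and its log2 difference with IL-4 averaged over genotypes was -0.09 ± 0.14 (SE). Of 3 other overlapping pairs of class I genes, 1 was divided differently in part of set 1. H2-Q6, inside the model of H2-Q8, took 0.00298%, 0.00285% and 0.0115% of their sum in 3 libraries of set 1 and 42.9% in Ern1f/fLyz2-Cre IL-4 of the same set, against 21.8% to 32.9% in set 2. The share of H2-Q9 in its sum with H2-Q7 (12.9% to 29.6% in set 1, 25.4% to 37.3% in set 2) and that of H2-T22 in its sum with H2-T9 (25.2% to 34.1% and 22.3% to 32.2%) overlapped between the sets.

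**Figure D3:**
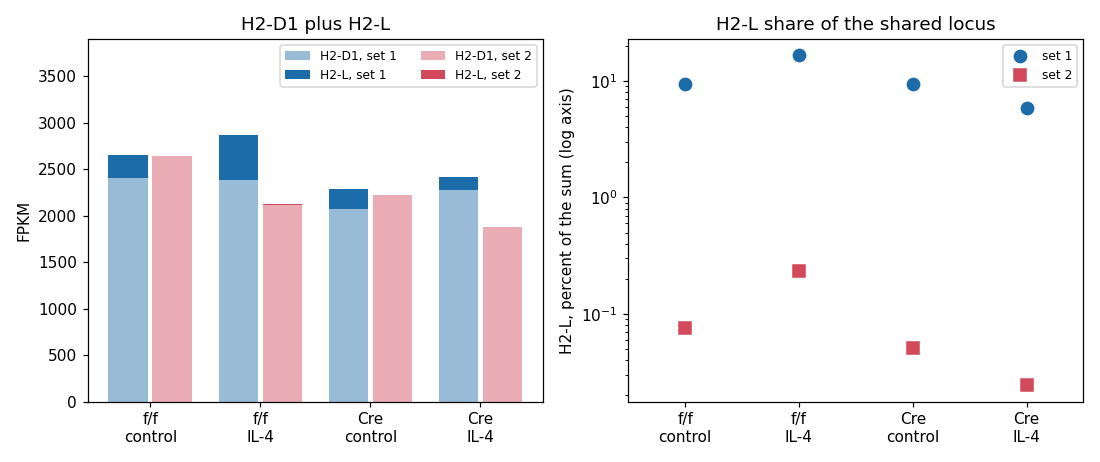
Left, FPKM of H2-D1 (light) and H2-L (dark) stacked per library in the 4 groups, set 1 in blue and set 2 in red. Right, H2-L as a percent of that sum on a log axis, which runs from 5.92% to 16.6% in set 1 and from 0.0244% to 0.235% in set 2. The bars at left have similar heights in the sets for control cells. With IL-4 they are higher in set 1 (2861 against 2120 FPKM in Ern1f/f, 2419 against 1882 FPKM in Ern1f/fLyz2-Cre).

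The 9 genes were next compared between IL-4 and control cells. None of the 9 was called in either genotype or averaged over both, by limma without a replicate block (Benjamini-Hochberg adjusted p under 0.05 over all 10934 tested genes). In Ern1f/f cells 0% of all tested genes were called, in Ern1f/fLyz2-Cre cells 0.0549%, and averaged over genotypes 0.841%. At an unadjusted p under 0.05 there were 673, 933 and 1522 genes. Blocking on the replicate number raised these shares to 2.12%, 3.32% and 12.7%, and H2-L in Ern1f/f cells was the 1 gene of the 9 then called (1.26% of tested genes were called higher there). Averaged over genotypes, 6 of the 9 genes were higher with IL-4 and 3 lower, with a median log2 difference of 0.03 against -0.03 for all tested genes.

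H2-T23 had the largest averaged IL-4 difference of the 9 genes, 0.44 ± 0.17 (SE) on the log2 scale by limma (adjusted p = 0.337 without the block and 0.115 with it). It was higher with IL-4 in 4 of 4 pairs of libraries of the same set and genotype, as for 17% of tested genes, by 0.64 and 0.66 in set 1 and 0.15 and 0.30 in set 2. With the block and without Ern1f/f IL-4 replicate 2 its adjusted p by limma was 0.0396, and without any other library it stayed above 0.05. Tapbp differed by 0.18 ± 0.09 (SE; adjusted p = 0.442 by limma, 0.178 with the block), also higher in 4 of 4 pairs. For the remaining genes the averaged differences were 0.15 ± 0.13 for H2-K1, -0.11 ± 0.11 for H2-D1, 0.03 ± 0.10 for B2m, 0.02 ± 0.40 for Tap1, -0.09 ± 0.15 for Tap2 and -0.08 ± 0.53 for Nlrc5 (SE, limma without the block).

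The sets gave different answers for some of these genes. H2-K1 was higher with IL-4 in set 1, by 0.37 in Ern1f/f and 0.41 in Ern1f/fLyz2-Cre cells, and not in set 2, where the differences were -0.15 and -0.01. H2-D1 was lower with IL-4 in set 2, by -0.32 and -0.24, against -0.01 and 0.14 in set 1. Tap2 likewise read -0.29 and -0.25 in set 2 and 0.21 and -0.02 in set 1. With 1 library per genotype, treatment and set, the difference between the sets was not tested.

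H2-L had opposite signs in the 2 genotypes, in both sets. Of all tested genes, 24.1% were higher with IL-4 in both sets in Ern1f/f cells and 33.6% lower in both sets in Ern1f/fLyz2-Cre cells. The share of genes that showed both was not counted. In Ern1f/f cells the level of H2-L with IL-4 was 1.91 and 2.47 times that in control cells, and in Ern1f/fLyz2-Cre cells it was 0.666 and 0.407 times that level. For the Ern1f/fLyz2-Cre pair of set 2 the authors' intervals overlapped (0.510 to 1.75 FPKM in control cells, 0.0840 to 0.836 with IL-4). The authors' intervals thus do not separate that pair. On the log2(FPKM + 1) scale the difference was 0.96 in Ern1f/f cells (0.93 in set 1 and 0.99 in set 2) and -0.56 in Ern1f/fLyz2-Cre cells (-0.58 and -0.54). Without the block the difference in Ern1f/f cells had an SE of 3.75 (adjusted p = 0.999 by limma), and with it an SE of 0.13 (adjusted p = 0.0219). That blocked call was lost with a pseudocount of 0.1 (adjusted p = 0.136 by limma) or 5 (0.135), and without any of 6 libraries, that is both Ern1f/f control, both Ern1f/f IL-4 and both Ern1f/fLyz2-Cre IL-4 libraries (0.0563 to 0.191). In Ern1f/fLyz2-Cre cells the adjusted p was 0.984 without the block and 0.0703 with it.

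**Figure D4:**
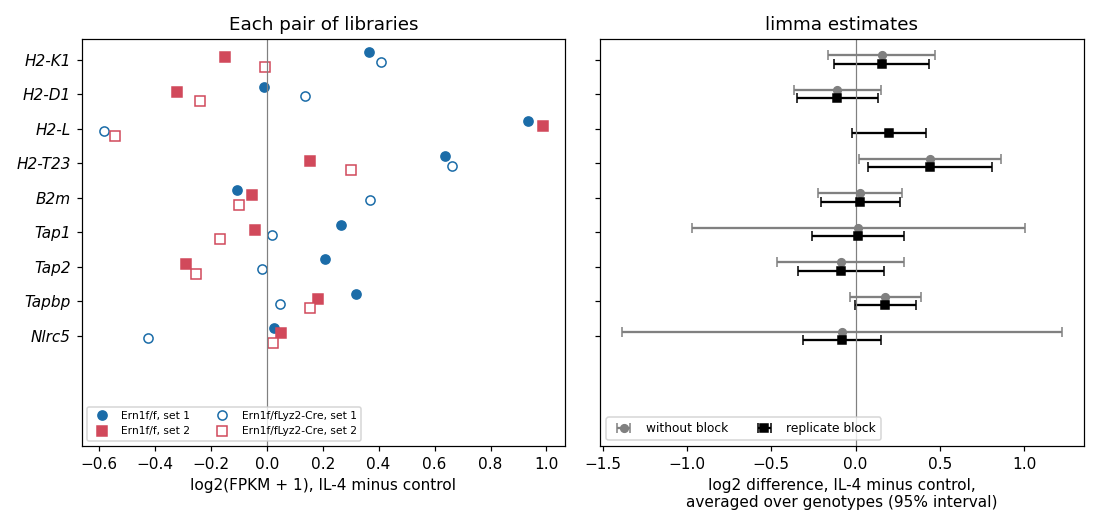
Left, IL-4 minus control in log2(FPKM + 1) for each pair of libraries (filled for Ern1f/f, open for Ern1f/fLyz2-Cre, circles for set 1, squares for set 2). Right, limma estimates averaged over genotypes with 95% intervals without (grey) and with (black) the replicate block; the interval of H2-L without the block, -6.28 to 6.68, is not drawn. H2-T23 and Tapbp are the genes with all 4 pairs to the right of 0.

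The comparison of genotypes sets libraries titled Ern1f/fLyz2-Cre against those titled Ern1f/f. Ern1 itself read higher in the Ern1f/fLyz2-Cre control libraries (14.3 and 12.7 FPKM) than in the Ern1f/f ones (11.5 and 9.55 FPKM). With IL-4 it read lower in Ern1f/fLyz2-Cre cells in set 1 (7.43 against 10.2 FPKM) and higher in set 2 (10.98 against 9.11 FPKM). In control cells none of the 9 genes was called by limma without or with the block, and 0% of all tested genes were called in either fit (27 and 137 genes at an unadjusted p under 0.05). The differences (Ern1f/fLyz2-Cre minus Ern1f/f) were -0.31 ± 0.18 for H2-K1, -0.23 ± 0.15 for H2-D1, -0.07 ± 0.24 for H2-T23, -0.14 ± 0.14 for B2m, -0.04 ± 0.57 for Tap1, -0.02 ± 0.22 for Tap2, 0.04 ± 0.12 for Tapbp, 0.10 ± 0.75 for Nlrc5 and -0.36 ± 3.75 for H2-L (log2, SE). Their signs were 7 lower and 2 higher, with a median of -0.07 against -0.0013 for all tested genes. H2-K1 and H2-D1 were lower in both sets, by -0.24 and -0.37 and by -0.21 and -0.25. The 95% interval of the difference for H2-K1 was -0.75 to 0.14 without the block and -0.71 to 0.09 with it.

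With IL-4, none of the 9 genes was called between genotypes without the block (0% of tested genes, 42 at an unadjusted p under 0.05). H2-L was the only gene called with it (0.00915% of tested genes). Its level in Ern1f/fLyz2-Cre cells was 0.301 and 0.0923 times that in Ern1f/f cells, a log2 difference of -1.88 with a blocked SE of 0.13 (adjusted p = 0.0320 by limma; -1.73 in set 1 and -2.03 in set 2). This call was lost with a pseudocount of 0.1 (adjusted p = 0.741 by limma) or 5 (0.99993), with median-ratio scaling (0.0615), and without each of the 8 libraries in turn (0.0583 to 0.951). For the other 8 genes the differences ran from -0.23 ± 0.57 (SE) for Tap1 to 0.07 ± 0.14 for B2m.

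The interaction, the difference between the genotypes in the response to IL-4, was called for none of the 9 genes and for 0% of all tested genes by limma, without or with the block (19 and 103 genes at an unadjusted p under 0.05). It was -1.52 for H2-L (-1.52 in set 1 and -1.53 in set 2), with adjusted p = 0.99999 by limma without the block and 0.9999 with it. The nearness of the sets holds for the pseudocount of 1, since the FPKM ratios themselves differ between genotypes by -1.52 in set 1 and -2.60 in set 2 on the log2 scale, and the fitted value was -1.96 with a pseudocount of 0.1 and -1.08 with 5. For the other 8 genes it ran from -0.24 ± 1.07 (SE) for Nlrc5 to 0.21 ± 0.20 for B2m.

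The separate genotype entry divides the libraries exactly as the sets do. With genotype taken from it, 4 of the 9 genes were called in control cells and 3 with IL-4 by limma. Among all 10934 tested genes, 3816 and 3273 were called. The set differences were known when the 9 genes were chosen, so these calls cannot serve as a test of genotype or set.

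Genes that act around the 9 responded to IL-4 in a few places. Of 14 genes for peptide generation and trimming, 1 was called for IL-4 averaged over genotypes without the block (0.841% of all tested genes were, 0.668% higher and 0.174% lower), namely Psmb10, the immunoproteasome subunit that replaces a constitutive catalytic subunit. Psmb10 rose from 60.7 and 78.5 FPKM to 134 and 120 in Ern1f/f cells and from 65.8 and 79.7 to 138 and 134 in Ern1f/fLyz2-Cre cells. Its 4 IL-4 libraries were all above its 4 control libraries, as for 6.98% of tested genes. Its log2 difference was 0.89 ± 0.13 (SE; adjusted p = 0.0491 by limma, 0.00586 with the block). Without any 1 of the 8 libraries the unblocked adjusted p was 0.0958 to 0.222 and the blocked one 0.00925 to 0.0391. With the block, under which 5.88% of tested genes were called higher and 6.86% lower, 2 of the 14 rose, Psmb10 and Erap1 (0.37), the aminopeptidase that trims peptides in the endoplasmic reticulum, and 1 fell, Blmh (-0.29, bleomycin hydrolase), but the calls of Erap1 and Blmh were lost without each of the 8 libraries in turn.

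Of 22 regulators of class I genes, none was called without the block for IL-4, and with it 3 rose and 1 fell on average over genotypes (5.88% and 6.86% of all tested genes). Irf1, an interferon-induced activator of class I genes, stood at 29.2 and 33.5 FPKM in Ern1f/f control cells against 50.5 and 65.3 with IL-4, and at 32.7 and 39.9 against 49.7 and 71.9 in Ern1f/fLyz2-Cre cells. Its log2 difference was 0.78 (blocked adjusted p = 0.00368 by limma, and 0.0134 to 0.0239 without any 1 library). Ciita, the class II transactivator and a relative of Nlrc5, differed by 1.21, Irf2 by 0.53 and Irf8 by -0.41, with blocked adjusted p of 0.0147, 0.0222 and 0.0284 by limma. These 3 calls held without any 1 library in 4, 3 and 0 of 8 cases. Nlrc5 itself read -0.08 ± 0.53 (SE), and its difference from Ciita was not tested.

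In the counts that follow, IL-4 is averaged over genotypes, where with the block 5.88% of all tested genes were called higher and 6.86% lower, and without it 0.668% and 0.174%. Of 11 chaperones and partners of peptide loading in the endoplasmic reticulum, 1 rose with the block, Calr, which encodes the lectin chaperone calreticulin (log2 0.47, adjusted p = 0.0319 by limma). Its call held in 1 of 8 cases with a library left out. Of 17 tested heavy chains outside the 9 genes, 2 rose and 2 fell with the block. H2-M2 differed by 1.31, from 18.1 and 25.8 FPKM to 33.9 and 56.8 in Ern1f/f cells and from 7.48 and 19.4 to 25.6 and 61.5 in Ern1f/fLyz2-Cre cells (adjusted p = 0.00439 by limma). Hfe, a class I-like molecule that controls iron uptake, differed by 0.90 (0.00639), and both calls held without any 1 library. Cd1d1, which presents lipids, differed by -0.42 (0.0375) and Mr1, which presents vitamin B metabolites, by -0.31 (0.0400), with calls that held in 1 and 0 of 8 cases. Of 26 interferon-stimulated genes, 1 rose with the block, Gbp2, an interferon-induced GTPase (0.84, adjusted p = 0.0262 by limma, held in 3 of 8 cases). In the 95 tested genes of the MHC segment outside the 9, 2 rose and 1 fell without the block, and 9 rose and 8 fell with it. No gene of any of these lists was called for genotype or the interaction by limma, without or with the block.

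Set differences of the lists are given as a description. Among 26 interferon-stimulated genes, 25 were higher in set 2 by at least 1 on the log2 scale in all 4 groups (2.98% of tested genes), with a median difference of 2.42 against -0.11 for all tested genes. The largest were Ifit3 (4.75), Ifit2 (4.33) and Rsad2 (4.26). By the same rule 3 of the 22 regulators were higher in set 2, among them Irf7 (2.34) and Stat2 (2.08), and 1 was lower. The median of the list was -0.17. The 17 other heavy chains had a median of 0.53, led among those with 1 direction in all groups by H2-T24 (1.43) and H2-T9 (1.29). The peptide generation list had a median of 0.19, with Psme2 (0.70), a proteasome activator subunit, Npepps (0.47) and Thop1 (-0.46) farthest from 0. The chaperone list had a median of -0.08, with Sec61b (-0.46), Uggt1 (-0.46) and Sec61a1 (-0.40) farthest from 0. In the MHC segment, 7 of the 95 genes were higher in set 2 by this rule and 2 lower, with a median of -0.08, and Ltb (3.19), a cytokine gene of the TNF family, and Cfb (2.11), complement factor B, were the highest with 1 direction in all groups.

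**Figure D5:**
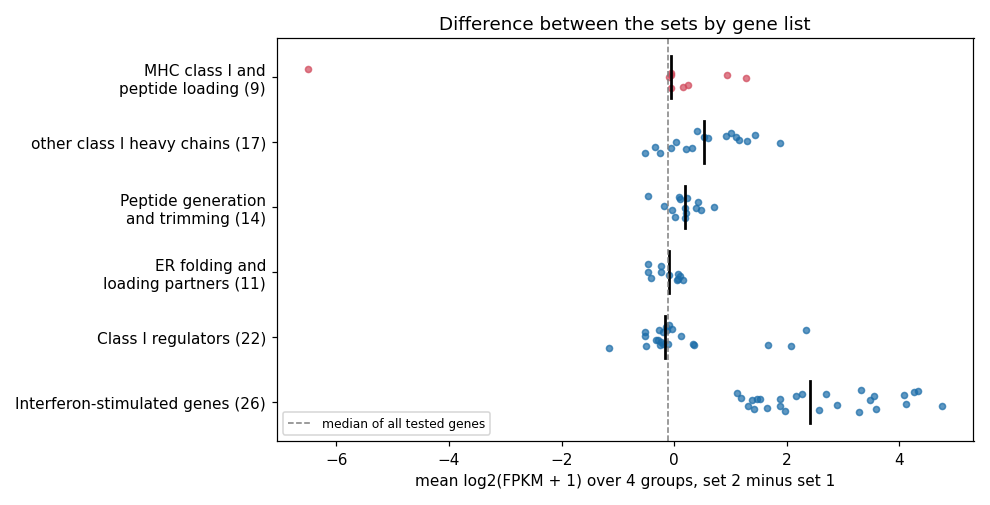
Mean difference in log2(FPKM + 1) between set 2 and set 1 for each tested gene of 6 lists (points; number of genes in brackets), with a black bar at each list's median and a dashed line at the median of all tested genes. Interferon-stimulated genes lie to the right, with a median of 2.42, whereas the 9 class I genes centre near 0 and hold the single point near -6.5, H2-L.

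Psmb9 lies next to Tap1 on the opposite strand, with overlapping promoter windows, and was singled out, like Psmb8, after its values were seen. It stood at 52.2 to 65.4 FPKM in set 1 and 72.8 to 87.1 FPKM in set 2, a ratio of 1.35 against 1.93 for Tap1. Psmb8, the next immunoproteasome gene of that cluster, read 109 to 168 and 156 to 194 FPKM, a ratio of 1.31, with sets that overlapped.

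Over the 8 libraries the genes whose log2 values followed Nlrc5 most closely were Ifih1 (Pearson r = 0.9959), Ddx58 (0.9955), Tagap (0.9946), Ccng1 (0.9943) and Ifi44 (0.9941), which were all higher in set 2. Those closest to H2-L were Nfam1 (0.9946), Cdt1 (0.9902), Fam58b (0.9833), Itgb5 (0.9821) and Akr7a5 (0.982), with set differences of -0.38 to -0.90. The genes closest to the mean of the other 8 genes were Taok3 (0.9774), Pgap2 (0.9745), Csrnp1 (0.9674), Selplg (0.9607) and Cdkn1a (0.9564). The 8 points fall into the 2 sets, so these values of r share the set difference, and they carry no test.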

How the data were processed

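Messenger RNA was sequenced in 8 libraries, 2 per group. The authors deposited 1 table per library with FPKM per gene and its confidence interval, made with TopHat 1.4.1 and Cufflinks 1.3.0 on mm10 per the submitters' processing notes; which gene models were counted is not given in the sources used here. Fragment counts were not used, so the depth behind each FPKM is known only through the authors' intervals. Each table held 23838 rows; rows sharing a symbol were summed to 23354 symbols. Values were analysed as log2(FPKM + 1), on which changes of low genes are understated, for the 10934 genes that reached 1 FPKM in 2 or more libraries. The linear model of limma 3.58.1 (R 4.3.3) had a mean for each of the 4 groups, used a trended eBayes variance and gave two-sided p-values, Benjamini-Hochberg adjusted over all tested genes, for 6 comparisons. The script was tested on simulated data. Calls needed an adjusted p under 0.05.

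Whether equal replicate numbers pair the libraries was checked. Set differences correlated across genes between all 6 pairs of groups (r = 0.688 to 0.827), and the first principal component (58.98% of variance) parted the numbers, so the fit with the number as a block is given where it changes a call or count. The 9 members, the gene lists and the comparisons were chosen with earlier results of these data known. Named from each other list were genes called for IL-4 or genotype without or with the block (at most 4 per list and comparison) and the 3 with the largest set difference, of which 1 is not reported here. Likeness was the highest Pearson r outside the 9. Alternatives covered pseudocount, filter, scaling, variance model, rows per symbol, gene status, paralogs summed, genotype field, block and each library left out. Promoters came from RefSeq and transcripts from GENCODE M21. Plots used Python 3.11.15 and matplotlib 3.10.9.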

Additional observations from a re-analysis of the deposited data

Results flagged for a closer look

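The response of H2-L to IL-4 was opposite in the 2 genotypes in each set, higher with IL-4 in both pairs of Ern1f/f libraries and lower in both pairs of Ern1f/fLyz2-Cre libraries. Of all tested genes, 24.1% showed the first pattern and 33.6% the second, and the share that showed both was not counted. The difference between the 2 responses of H2-L was -1.52 on the log2(FPKM + 1) scale, with -1.52 in set 1 and -1.53 in set 2. From the FPKM ratios without a pseudocount it was -1.52 in set 1 and -2.60 in set 2, and the fitted value was -1.96 with a pseudocount of 0.1 and -1.08 with 5. The interaction test did not pass (adjusted p = 0.99999 by limma without the block and 0.9999 with it). By its outer coordinates the gene model of H2-L lies inside that of H2-D1, and in set 2 H2-L read at most 4.98 FPKM. For the Ern1f/fLyz2-Cre pair of set 2 the authors' intervals overlapped (0.510 to 1.75 FPKM in control cells, 0.0840 to 0.836 with IL-4). The part of the overlapping models in this pattern was not tested.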

How the results depend on the processing

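No member was called without the block under any alternative that kept the titles' genotypes, and 1270 of 1410 recomputed values kept their direction and side of the threshold. With the replicate block, 232, 363 and 1393 genes were called for IL-4 (Ern1f/f, Ern1f/fLyz2-Cre, averaged) and 1 for genotype with IL-4, with 1 member, H2-L, in the first and the last; it changed no other call of a member. For IL-4 in Ern1f/fLyz2-Cre cells, the count of 6 genes called became 0 with a pseudocount of 0.1, without a filter, without the trend and with only the groups compared, and 3 with a filter of 1 FPKM in all libraries. Median-ratio scaling gave 21 there and 11 in Ern1f/f cells, and turned H2-T23 to -0.012 for genotype with IL-4.

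Genotype from the labels' field is the division into sets, known when the members were chosen, so its calls do not test the members. With it, 3816 of 10934 tested genes and 4 of the 9 members were called in control cells. With IL-4, 3273 genes and 3 members were called. Signs reversed in control cells for H2-K1 (0.14), H2-D1 (0.12), H2-T23 (0.36), B2m (0.047), Tap1 (1.07), Tap2 (0.44) and Tapbp (-0.047), and with IL-4 for H2-T23 (-0.062), B2m (-0.16), Tap1 (0.82), Tap2 (0.071) and Nlrc5 (1.3999). Set differences turned under scaling for H2-K1 (0.011), H2-D1 (0.054), B2m (0.049) and Tapbp (0.052). That of H2-L was -7.22 and -5.17 with pseudocounts of 0.1 and 5, and that of Nlrc5 0.81 with 5.

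Leaving out 1 library left 0 to 1 genes called in Ern1f/f cells, 0 to 1 in Ern1f/fLyz2-Cre cells and 3 to 49 averaged, the lowest without Ern1f/fLyz2-Cre IL-4 replicate 2; a lone library was then assumed to vary like the other groups. Uncalled log2 differences that changed sign ranged as follows. For IL-4 in Ern1f/f cells H2-K1 ran from -0.049 to 0.26, H2-L from -2.22 to 4.15, Tap1 from -0.34 to 0.56, Tap2 from -0.25 to 0.17 and Nlrc5 from -0.57 to 0.64. In Ern1f/fLyz2-Cre cells H2-D1 ran from -0.19 to 0.085, H2-L from -3.90 to 2.77, B2m from -0.0048 to 0.28, Tap1 from -0.69 to 0.54, Tap2 from -0.36 to 0.089 and Nlrc5 from -0.9958 to 0.60. Averaged, H2-L ran from -1.47 to 1.86, B2m from -0.042 to 0.098, Tap1 from -0.29 to 0.33, Tap2 from -0.20 to 0.024 and Nlrc5 from -0.48 to 0.32. For genotype in control cells H2-L ran from -3.69 to 2.98, H2-T23 from -0.37 to 0.23, Tap1 from -0.66 to 0.58, Tap2 from -0.25 to 0.20, Tapbp from -0.015 to 0.085 and Nlrc5 from -0.49 to 0.70. With IL-4 H2-D1 ran from -0.26 to 0.019, H2-L from -5.19 to 1.43, H2-T23 from -0.17 to 0.19, B2m from -0.066 to 0.21, Tap1 from -0.75 to 0.30 and Nlrc5 from -0.93 to 0.66. For the interaction H2-K1 ran from -0.077 to 0.26, H2-D1 from -0.024 to 0.25, H2-L from -4.86 to 1.81, H2-T23 from -0.21 to 0.39, Tap1 from -0.80 to 0.43, Tap2 from -0.32 to 0.13 and Nlrc5 from -1.03 to 0.56. Leaving out 1 group, the set difference of H2-D1 ran from -0.12 to 0.023, of H2-T23 from -0.0016 to 0.32 and of B2m from -0.14 to 0.018. The cause of these changes was not tested. Blocked fits without 1 library, blocked fits of H2-L with other pseudocounts or scaling, and the runs for named list genes were chosen after seeing the data; the blocked counts were then 6 to 278, 2 to 339 and 491 to 1226 for the IL-4 comparisons.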
